A study of Mus musculus with 12 samples.

Results

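Tight junctions seal the space between neighbouring epithelial cells, and the polarity complexes next to them set the apical face of each cell apart from its sides and base. The genes described here encode the parts of both systems: 40 protein-coding genes whose symbols name claudins, zonula occludens proteins (*Tjp*), MARVEL-domain proteins (*Marveld*), nectins, *Pard3*, *Pard3b* and *Pard6* proteins, Crumbs, *Llgl* and *Dlg* proteins, or are *Ocln*, *Cgn*, *Cgnl1*, *F11r*, *Scrib*, *Patj* or *Prkci*. They were found by symbol, and not by their values, among 18926 genes in the deposited tables, of which 13983 were protein-coding. The set itself was chosen with earlier results of these data known. RefSeq has 55 genes with such symbols, and the other 15 were not analysed here: *Cldn1*, *Cldn5*, *Cldn7*, *Cldn8*, *Cldn9*, *Cldn10*, *Cldn11*, *Cldn13*, *Cldn16*, *Cldn17*, *Cldn19*, *Cldn22*, *Cldn24*, *Crb1* and *Dlg2*. All 40 passed the filter on low counts that left 18053 genes for testing.

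In a tight junction, claudins span the membrane and form the strands that set which ions may pass, occludin and its MARVEL relatives join them, and the zonula occludens proteins and cingulins of the cytoplasmic plaque tie the strands to actin. Nectins begin the contact between cells. Apical identity is kept by the PAR complex (*Pard3*, *Pard6*, atypical protein kinase C) and the Crumbs complex, while the Scribble, *Dlg* and *Llgl* proteins hold the basolateral side. Merlin, the product of *Nf2*, is a membrane-linked protein upstream of the Hippo pathway that is found at cell junctions, and *Rasa1* encodes a GTPase-activating protein that turns Ras off.

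RNA was sequenced from S1 tumorspheres, the round clusters that S1 gastric cancer cells form in low-attachment culture, in 12 libraries. Each of the 4 groups held 3: control cells, cells edited at *Nf2*, cells labelled *Rasa1*-KO, and cells labelled double-KO, a label that stands for editing at both genes. S1 was derived from a tumor of a ChetPS mouse, so every group, control included, descends from tissue with floxed *Trp53* (F/F), floxed *Smad4* (F/F) and 1 floxed copy of *Cdh1* (F/+). What drove recombination of these alleles is not given in the sources used here. Knockouts were made with lentiviral guide RNAs in Cas9-expressing cells, and the antibiotic-resistant cells of each group were kept as a pool, not as 1 clone. The labels call the cells a monolayer, whereas their protocol describes cells seeded in suspension, and the study's legend calls replicates technical, so p-values measure the spread between libraries only. Libraries are given below in the order unnumbered, 1 and 2 for control and for those labelled *Rasa1*-KO, and 1, 2 and 3 for the other groups.

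The targeted genes go against 2 of the labels. *Nf2* had 58.1, 61.0 and 55.4 CPM (read counts scaled by TMM to a common library size) in control, 14.3, 13.2 and 13.2 in *Nf2*-KO, 11.6, 11.9 and 12.1 in the libraries labelled *Rasa1*-KO and 62.6, 57.6 and 56.4 in those labelled double-KO. *Rasa1* had 60.5, 74.9 and 78.5 CPM in control, 97.2, 101 and 97.2 in *Nf2*-KO, 34.5, 30.4 and 30.8 in the libraries labelled *Rasa1*-KO and 17.7, 20.6 and 23.3 in those labelled double-KO. *Nf2* was thus low in the libraries labelled *Rasa1*-KO and at the control level in those labelled double-KO, and the names of the deposited tables give these groups the other way round. A knockout allele need not lower its mRNA, which could leave *Nf2* at the control level in labelled double-KO. That does not account for the libraries labelled *Rasa1*-KO, where *Nf2* was 4.90-fold below control (log2 fold change -2.29). Differences given below for labelled *Rasa1*-KO are therefore not to be read as effects of losing *Rasa1* alone. Both groups keep their labels here, and if the labels were exchanged every value given for one would belong to the other. Counts summed to between 43818139 and 96674463 per library. The unnumbered control library stood apart from the other control libraries for many members, and without it the share of all genes called in labelled double-KO against control went from 6.46% to 30.3%.

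Epithelial markers were abundant in all groups: the 6 of 7 listed genes found in the tables, among them *Krt8* and *Krt18*, summed to between 2170 and 4370 FPKM. Of these 6, *Epcam* and *Cdh1* fell and *Krt7* rose in *Nf2*-KO, and 4 rose and the same 2 fell in labelled *Rasa1*-KO. Gastric markers were low, with 5 of 10 found and between 1.42 and 6.47 FPKM in sum, and intestinal markers (5 of 6 found) summed to between 35.5 and 59.5 FPKM. Of these 5 intestinal markers 2 rose and 3 fell in *Nf2*-KO, as in labelled *Rasa1*-KO, so the sum hides changes both ways. Fibroblast markers (5 of 6 found) differed widely between groups in sum, from 21.9 to 180 FPKM in control and 22.4 to 47.9 FPKM in labelled double-KO up to 391 to 420 FPKM in labelled *Rasa1*-KO and 1140 to 1220 FPKM in *Nf2*-KO, there mostly *Col3a1*. They did not all move one way: 4 rose and 1 fell in *Nf2*-KO, as in labelled *Rasa1*-KO. The 2 of 5 immune markers found summed to between 4.09 and 16.2 FPKM and the 2 of 4 endothelial markers to under 1 FPKM. These levels moved with the same groups as many members below, and their part in the results was not tested. In bulk RNA, fewer cells of a type and less RNA per cell cannot be told apart.

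The proximal promoters of 4 members, the sites where their transcription starts, are shown because *Tjp3* and *Cldn2* fell furthest in *Nf2*-KO among members that were abundant in control, *Cldn6* rose most and *Crb3* encodes the Crumbs protein of most epithelia. RefSeq windows on GRCm38.p6, from 250 bases before to 50 bases after a start, were matched for 33 members. Capitals mark the letters GGAATG (the core that TEAD factors bind), CAGGTG (an E-box bound by Snail and Zeb repressors) and TGACTCA (AP-1), each on either strand, and TATAAA (the TATA box) on the sense strand, and no motif overlapped another.
*Cldn2*, chrX:139800558-139800857 (+ strand): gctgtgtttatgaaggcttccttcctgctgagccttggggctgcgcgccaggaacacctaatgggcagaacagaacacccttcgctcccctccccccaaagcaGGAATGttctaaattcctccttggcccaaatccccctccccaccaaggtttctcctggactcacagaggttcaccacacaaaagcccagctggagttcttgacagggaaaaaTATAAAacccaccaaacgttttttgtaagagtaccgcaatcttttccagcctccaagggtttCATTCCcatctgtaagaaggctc
*Cldn6*, chr17:23679115-23679414 (+ strand): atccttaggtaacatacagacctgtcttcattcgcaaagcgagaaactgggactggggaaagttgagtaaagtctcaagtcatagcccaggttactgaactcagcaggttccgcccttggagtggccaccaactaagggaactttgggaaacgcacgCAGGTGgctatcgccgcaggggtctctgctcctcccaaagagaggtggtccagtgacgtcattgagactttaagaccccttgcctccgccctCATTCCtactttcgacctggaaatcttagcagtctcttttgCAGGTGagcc
*Tjp3*, chr10:81291532-81291831 (- strand): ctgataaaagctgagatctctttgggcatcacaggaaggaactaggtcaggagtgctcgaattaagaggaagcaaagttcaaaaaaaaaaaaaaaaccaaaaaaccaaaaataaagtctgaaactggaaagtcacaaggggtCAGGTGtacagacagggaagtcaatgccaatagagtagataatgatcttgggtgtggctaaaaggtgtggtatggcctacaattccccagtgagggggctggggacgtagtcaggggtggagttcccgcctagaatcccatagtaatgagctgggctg
*Crb3*, chr17:57061951-57062250 (+ strand): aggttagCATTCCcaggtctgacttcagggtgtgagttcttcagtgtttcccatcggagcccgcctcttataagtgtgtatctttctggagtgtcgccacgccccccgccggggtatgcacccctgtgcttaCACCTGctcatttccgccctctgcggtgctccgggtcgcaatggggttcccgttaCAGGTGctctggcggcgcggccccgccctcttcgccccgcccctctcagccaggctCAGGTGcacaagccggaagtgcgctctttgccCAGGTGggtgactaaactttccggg
Counted from the start, whose first base is 1, *Cldn2* had GGAATG at -147 and, on the opposite strand, at 28, with a TATA box at -35. *Cldn6* had GGAATG on the opposite strand across the start, and E-boxes at -93 and 41. *Tjp3* and *Crb3* have 2 windows each, of which only the first is shown and described. In that of *Tjp3* the only match was an E-box at -108, and that of *Crb3* had 4 E-boxes and, on the opposite strand, GGAATG at -243. Over all 52 windows of members, some of which overlap, 20 held the E-box (38.5%, against 20.2% of 32851 windows of all genes). GGAATG was in 7 of the 52 (13.5%, against 14.7%), TGACTCA in 4 (7.69%, against 5.20%) and TATAAA in 2 (3.85%, against 8.32%). Counted by gene, the E-box was in 16 of the 33 members (beside 22.6% of all genes) and GGAATG in 7 (beside 16.6%). TGACTCA was in 4 members (beside 5.95%) and TATAAA in 2 (beside 9.77%). The 2 ways of counting thus place GGAATG on different sides of the share of all genes. The 33 members had 52 windows and all 27025 genes had 32851, and a gene with more windows has more places for a match, so the counts by gene are not on equal terms. A match describes the letters only, and binding was not measured.

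By level per length, *Cldn2* was the most abundant member in control, with 129 ± 10.1 FPKM (mean ± SD, n = 3), followed by *F11r* (60 ± 15.0). Other abundant members were *Nectin2* (35.1 ± 3.86) and *Tjp1* (32.2 ± 11.5), on the same scale. *Nectin2* and *Tjp1* did not differ beyond their SDs. *Cldn18*, the claudin of the gastric epithelium, was among the lowest at 0.0756 ± 0.0140 FPKM, level with *Cldn4* and *Nectin4*. In *Nf2*-KO the order differed. *F11r* led with 68.9 ± 3.21 FPKM, and *Tjp1* (32.3 ± 3.51), *Cldn2* (32.1 ± 1.81) and *Cldn6* (31.8 ± 1.28) stood level behind it.

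Most members differed between the groups. Across the 4 groups, 29 of 40 had an adjusted p under 0.05 (edgeR's quasi-likelihood test, Benjamini-Hochberg over all genes tested), against 46.3% of all genes. In *Nf2*-KO against control 20 members fell and 10 rose, that is 50% and 25% of them, beside 22.2% and 20.6% of all genes tested. In labelled *Rasa1*-KO 17 fell and 12 rose (42.5% and 30.0%), beside 22.2% and 19.7% of all genes. Among protein-coding genes alone, 24.1% fell and 23.3% rose in *Nf2*-KO, and 23.8% fell and 21.7% rose in labelled *Rasa1*-KO. In labelled double-KO 5 members rose and 4 fell (12.5% and 10.0%), beside 4% and 2.46% of all genes. The median log2 fold change of the members was -0.48 in *Nf2*-KO, -0.35 in labelled *Rasa1*-KO and 0.07 in labelled double-KO, where all genes had -0.07, -0.08 and -0.04. These 3 comparisons share the control libraries. Members called in no comparison were *Cldn4*, *Cldn18*, *Cldn20*, *Nectin4*, *Tjp1*, *Scrib* and *Dlg4*. Of the 30 calls in *Nf2*-KO, 25 held in every alternative fit, of the 29 in labelled *Rasa1*-KO 20, and of the 9 in labelled double-KO 0.

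**Figure D1:**
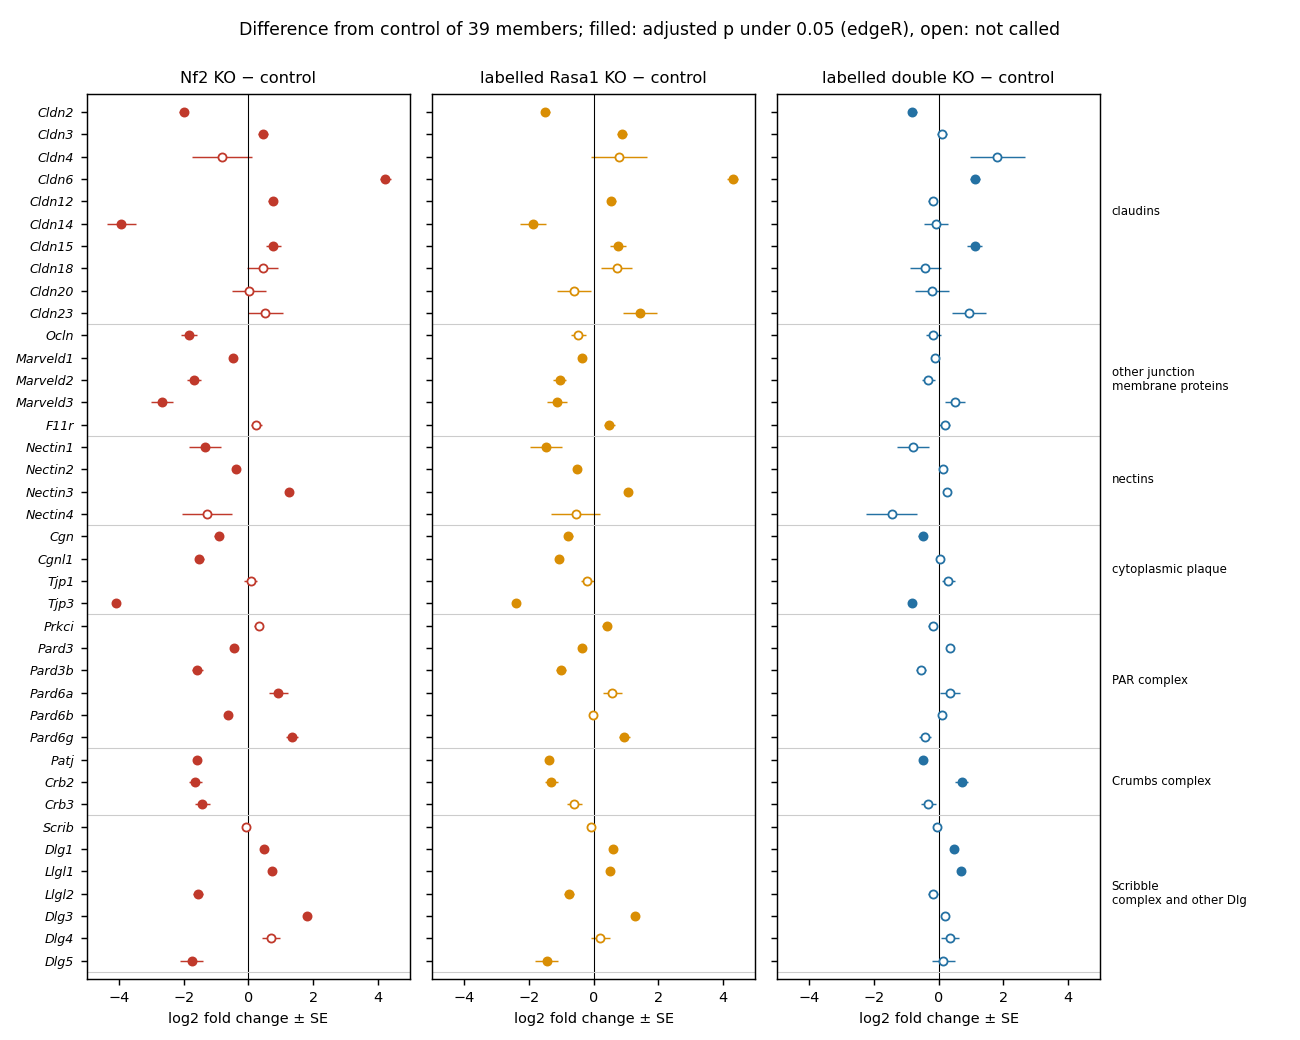
Log2 fold change against control (x axis, with its standard error) of 39 members (rows, grouped by role) in *Nf2*-KO, labelled *Rasa1*-KO and labelled double-KO, from edgeR; filled points have an adjusted p under 0.05. *Cldn6* lies furthest right in the left and middle panels and *Tjp3* furthest left, while in the right panel 9 points are filled.

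Among the 10 claudins, 2 fell and 4 rose in *Nf2*-KO, and 2 fell and 5 rose in labelled *Rasa1*-KO. *Cldn2* (Entrez gene 12738, chromosome X from 139800808 to 139811386), which forms pores for cations and water, had 442, 405 and 343 CPM in control and 103, 97.0 and 97.6 CPM in *Nf2*-KO. It had 139, 142 and 139.8 CPM in labelled *Rasa1*-KO and 276, 200 and 200.3 CPM in labelled double-KO. All 9 knockout libraries lay below the lowest control library. *Cldn2* fell 4.01-fold in *Nf2*-KO (log2 fold change -2.0, standard error 0.14, adjusted p = 8.2e-07), 2.83-fold in labelled *Rasa1*-KO (log2 fold change -1.50, standard error 0.14, adjusted p = 9.8e-06) and 1.76-fold in labelled double-KO (log2 fold change -0.82, standard error 0.14, adjusted p = 0.0048).

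*Cldn6* (Entrez gene 54419, chromosome 17 from 23679348 to 23682446), a claudin best known from embryonic epithelia and stem cells, went the other way. It had 2.50, 3.24 and 2.54 CPM in control and 50.5, 50.2 and 55.4 CPM in *Nf2*-KO. In labelled *Rasa1*-KO it had 54.5, 53.1 and 56.2 CPM and in labelled double-KO 4.76, 6.65 and 6.71 CPM. Every knockout library was above every control library, by far the most in *Nf2*-KO and labelled *Rasa1*-KO. The rise was 18.8-fold in *Nf2*-KO (log2 fold change 4.24, standard error 0.16, adjusted p = 1.5e-08), 19.8-fold in labelled *Rasa1*-KO (log2 fold change 4.31, standard error 0.16, adjusted p = 2.1e-08) and 2.19-fold in labelled double-KO (log2 fold change 1.13, standard error 0.15, adjusted p = 0.0014).

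*Cldn14*, a claudin that blocks cations, was a low gene. It had 1.12, 1.03 and 0.556 CPM in control, 0.0470, 0.0684 and 0.0580 CPM in *Nf2*-KO, 0.213, 0.341 and 0.180 CPM in labelled *Rasa1*-KO and 0.536, 1.14 and 0.878 CPM in labelled double-KO. The *Nf2*-KO libraries were lowest, those labelled *Rasa1*-KO came next, and labelled double-KO overlapped with control. It fell in *Nf2*-KO (log2 fold change -3.93, standard error 0.46, adjusted p = 3.7e-05) and in labelled *Rasa1*-KO (log2 fold change -1.88, standard error 0.40, adjusted p = 0.003). *Cldn15*, also a cation pore, had 1.09, 0.762 and 0.774 CPM in control, 1.54, 1.54 and 1.43 in *Nf2*-KO, 1.10, 1.80 and 1.54 in labelled *Rasa1*-KO and 1.82, 1.85 and 2.07 in labelled double-KO, and the groups did not overlap with control, if only just in labelled *Rasa1*-KO. It rose in *Nf2*-KO (log2 fold change 0.77, standard error 0.24, adjusted p = 0.021), labelled *Rasa1*-KO (log2 fold change 0.75, standard error 0.24, adjusted p = 0.025) and labelled double-KO (log2 fold change 1.12, standard error 0.24, adjusted p = 0.017), and each of these calls was lost when any of 3 or 4 single libraries was left out, with control library 1 among them each time. *Cldn23* had 0.149, 0.640 and 0.218 CPM in control and 0.942, 0.900 and 0.898 CPM in labelled *Rasa1*-KO, with no overlap (log2 fold change 1.44, standard error 0.53, adjusted p = 0.047), but leaving out any of 10 single libraries ended this call.

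The other abundant claudins, *Cldn3* and *Cldn12*, rose modestly. *Cldn3* had a log2 fold change of 0.44 (standard error 0.16, adjusted p = 0.041) in *Nf2*-KO, a call that 9 of the 12 single libraries could end, and 0.89 (standard error 0.16, adjusted p = 0.001) in labelled *Rasa1*-KO. For *Cldn12* the values were 0.76 (standard error 0.14, adjusted p = 0.0011) and 0.54 (standard error 0.14, adjusted p = 0.009). *Cldn18* had 0.202, 0.231 and 0.258 CPM in control, 0.282, 0.137 and 0.511 in *Nf2*-KO, 0.490, 0.316 and 0.321 in labelled *Rasa1*-KO and 0.252, 0.147 and 0.113 in labelled double-KO, with adjusted p-values of 0.48, 0.25 and 0.69 against control. *Cldn4* and *Cldn20* also averaged under 1 CPM in every group, and no difference from control was detectable in these 3 at this depth.

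The make-up of the claudins differed between the groups, given per length as a share of the summed FPKM of the 10 genes. *Cldn2* made up 82.2 ± 0.975% of claudin FPKM in control (mean ± SD, n = 3), 31.8 ± 2.07% in *Nf2*-KO, 37.2 ± 0.845% in labelled *Rasa1*-KO and 70.2 ± 5.85% in labelled double-KO. *Cldn6* made up 1.14 ± 0.192% in control, 31.6 ± 1.09% in *Nf2*-KO, 28.0 ± 0.375% in labelled *Rasa1*-KO and 3.79 ± 1.05% in labelled double-KO. The summed level was highest in control, at 157 ± 13.6 FPKM, and was 100.8 ± 0.874 FPKM in *Nf2*-KO, 114 ± 0.481 FPKM in labelled *Rasa1*-KO and 96.7 ± 9.26 FPKM in labelled double-KO. *Cldn3* and *Cldn12* held 8.92 ± 1.29% and 6.67 ± 0.873% in control, 18.2 ± 1.17% and 17.0 ± 0.965% in *Nf2*-KO, and 20.9 ± 1.14% and 12.4 ± 0.634% in labelled *Rasa1*-KO. Claudin FPKM, most of it *Cldn2* in control, was thus spread over 4 genes in *Nf2*-KO, where *Cldn2* and *Cldn6* did not differ beyond their SDs.

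**Figure D2:**
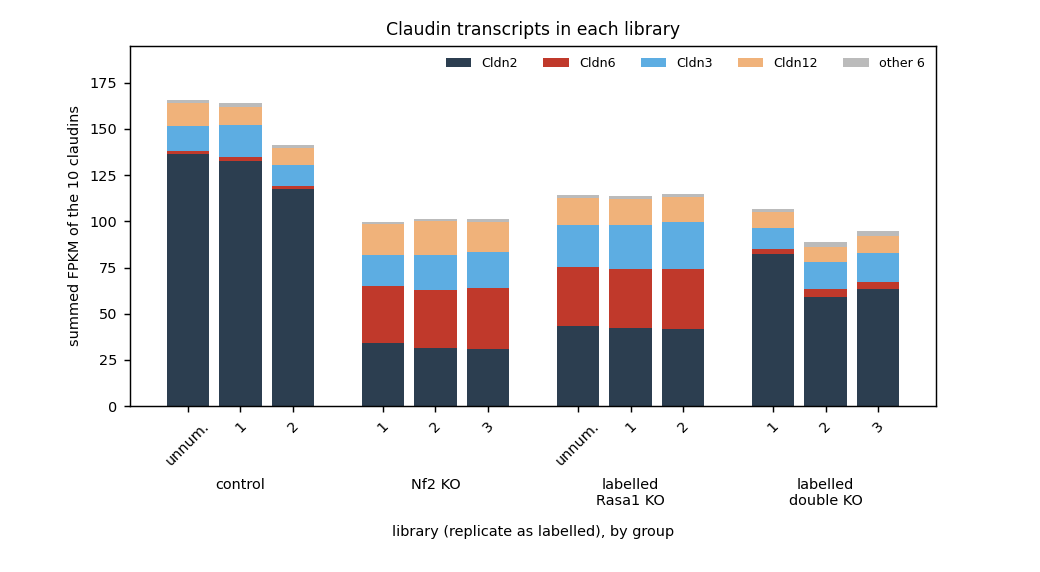
Summed FPKM of the 10 claudins (y axis) in each of the 12 libraries (bars, by group and replicate), split into *Cldn2*, *Cldn6*, *Cldn3*, *Cldn12* and the other 6. The *Cldn2* segment makes up most of each control bar, and in *Nf2*-KO the *Cldn2* and *Cldn6* segments are both about 32 FPKM high (means of 32.1 and 31.8).

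Of the 5 other membrane proteins, 4 fell in *Nf2*-KO, and in labelled *Rasa1*-KO 3 fell and *F11r* rose. *Ocln*, occludin, had 9.34, 17.6 and 18.0 CPM in control and 4.19, 4.31 and 4.06 CPM in *Nf2*-KO. It had 11.2, 11.4 and 9.93 CPM in labelled *Rasa1*-KO and 9.75, 15.1 and 15.0 CPM in labelled double-KO. Only the *Nf2*-KO libraries were separate from control, since the unnumbered control library was at the level of the other knockouts. The fall in *Nf2*-KO was 3.58-fold (log2 fold change -1.84, standard error 0.24, adjusted p = 0.0001), while labelled *Rasa1*-KO differed from control by a log2 fold change of -0.47 (standard error 0.23, adjusted p = 0.13).

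*Marveld2* (tricellulin) and *Marveld3* are the MARVEL relatives of occludin. *Marveld2* had 7.87, 13.5 and 10.9 CPM in control, 3.82, 2.91 and 3.30 in *Nf2*-KO, 5.41, 4.95 and 5.22 in labelled *Rasa1*-KO and 7.14, 8.91 and 9.79 in labelled double-KO. *Marveld3* had 2.39, 4.74 and 6.11 CPM in control, 0.659, 0.593 and 0.813 in *Nf2*-KO, 2.11, 2.12 and 1.80 in labelled *Rasa1*-KO and 4.56, 7.44 and 6.64 in labelled double-KO. Both were lowest in *Nf2*-KO and lay between it and control in labelled *Rasa1*-KO. *Marveld2* fell in *Nf2*-KO (log2 fold change -1.69, standard error 0.20, adjusted p = 5e-05) and labelled *Rasa1*-KO (log2 fold change -1.05, standard error 0.20, adjusted p = 0.0016). *Marveld3* fell by more in *Nf2*-KO (log2 fold change -2.67, standard error 0.33, adjusted p = 5.9e-05) than in labelled *Rasa1*-KO (log2 fold change -1.13, standard error 0.31, adjusted p = 0.013), and the latter call was lost without labelled *Rasa1*-KO library 2. *Marveld1* fell with log2 fold changes of -0.49 (standard error 0.08, adjusted p = 0.00043) and -0.35 (standard error 0.08, adjusted p = 0.0043). *F11r*, which encodes the adhesion molecule JAM-A, rose in labelled *Rasa1*-KO (log2 fold change 0.49, standard error 0.18, adjusted p = 0.042), a call that any of 10 single libraries could end.

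The nectins did not move one way. *Nectin3* had 11.5, 9.79 and 10.9 CPM in control, 26.0, 25.7 and 25.6 in *Nf2*-KO, 24.0, 22.9 and 20.8 in labelled *Rasa1*-KO and 13.4, 12.9 and 11.8 in labelled double-KO, so that the first 2 knockouts lay about a doubling above control. It rose in *Nf2*-KO (log2 fold change 1.26, standard error 0.10, adjusted p = 2.7e-06) and labelled *Rasa1*-KO (log2 fold change 1.07, standard error 0.10, adjusted p = 1.4e-05). *Nectin2*, the most abundant nectin, fell slightly, with log2 fold changes of -0.40 (standard error 0.12, adjusted p = 0.019) and -0.53 (standard error 0.12, adjusted p = 0.0042), the first of which was not called without control library 1 or *Nf2*-KO library 2. *Nectin1* was called lower in both (log2 fold change -1.35, standard error 0.50, adjusted p = 0.045 and log2 fold change -1.48, standard error 0.50, adjusted p = 0.033), but its control libraries ranged from 1.51 to 8.45 CPM and overlapped with the knockouts, and 9 and 5 of the 12 single libraries could end these calls.

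In the cytoplasmic plaque, *Tjp3*, *Cgn* and *Cgnl1* fell in *Nf2*-KO and in labelled *Rasa1*-KO, and no member rose in a comparison with control. *Tjp3* (Entrez gene 27375, chromosome 10 from 81273188 to 81291581), which encodes zonula occludens 3, fell more than any other member in *Nf2*-KO and labelled *Rasa1*-KO. It had 74.9, 81.3 and 65.1 CPM in control and 4.18, 4.0 and 4.82 CPM in *Nf2*-KO. In labelled *Rasa1*-KO it had 13.5, 13.8 and 14.2 CPM and in labelled double-KO 38.6, 44.4 and 42.5 CPM. The 4 groups did not overlap and stood in the order control, labelled double-KO, labelled *Rasa1*-KO, *Nf2*-KO. *Tjp3* fell 17.0-fold in *Nf2*-KO (log2 fold change -4.09, standard error 0.13, adjusted p = 3.8e-09), 5.33-fold in labelled *Rasa1*-KO (log2 fold change -2.41, standard error 0.12, adjusted p = 9.6e-08) and 1.76-fold in labelled double-KO (log2 fold change -0.82, standard error 0.11, adjusted p = 0.0016).

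Its paralogue *Tjp1*, which encodes zonula occludens 1, had 149.9, 258 and 288 CPM in control, 267, 248 and 219.5 in *Nf2*-KO, 199, 225 and 186 in labelled *Rasa1*-KO and 249.7, 301 and 301 in labelled double-KO. All groups overlapped with control, whose unnumbered library was lowest of all 12, and *Nf2*-KO differed by 0.08 (standard error 0.20, adjusted p = 0.78) on the log2 scale.

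The cingulins, adaptors that tie the plaque to the cytoskeleton, fell with *Tjp3*. *Cgnl1* (paracingulin) had 199.8, 203 and 171 CPM in control, 67.3, 67.7 and 65.6 in *Nf2*-KO, 82.3, 97.8 and 91.5 in labelled *Rasa1*-KO and 239, 181 and 174 in labelled double-KO. The *Nf2*-KO and labelled *Rasa1*-KO libraries lay below all others, and labelled double-KO overlapped with control. *Cgnl1* fell in *Nf2*-KO (log2 fold change -1.52, standard error 0.13, adjusted p = 3.9e-06) and labelled *Rasa1*-KO (log2 fold change -1.08, standard error 0.13, adjusted p = 6.4e-05). *Cgn* (cingulin) had log2 fold changes of -0.92 (standard error 0.13, adjusted p = 0.0002) and -0.78 (standard error 0.13, adjusted p = 0.00076), and its -0.49 in labelled double-KO had an adjusted p just under the threshold that 11 of the 12 single libraries could push above it.

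**Figure D3:**
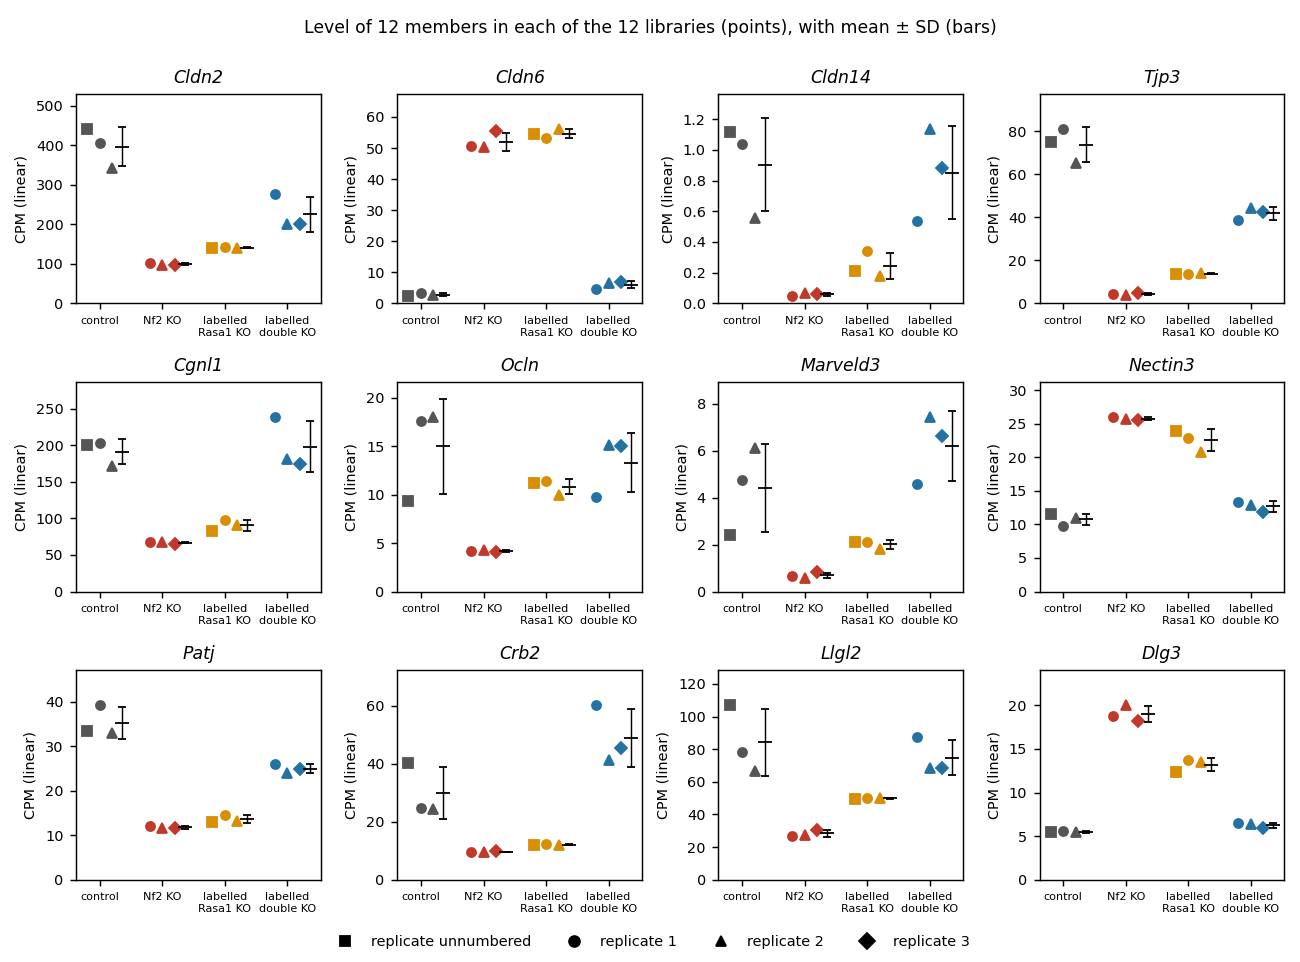
CPM on linear axes (y) of 12 members in each library (points; shape gives the replicate as labelled) of the 4 groups (x axis), with the mean ± SD of the 3 libraries in black. *Cldn6*, *Nectin3* and *Dlg3* are high in *Nf2*-KO and labelled *Rasa1*-KO, the other 9 are lowest in *Nf2*-KO, and the unnumbered control library (square) differs from the other controls in *Ocln*, *Marveld3*, *Crb2* and *Llgl2*.

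In the PAR complex, 3 of 6 members fell and 2 rose in *Nf2*-KO. *Pard3*, the scaffold of the complex, had 72.0, 87.2 and 76.5 CPM in control, 60.9, 57.7 and 52.9 in *Nf2*-KO, 58.1, 65.1 and 61.3 in labelled *Rasa1*-KO and 105, 99.9 and 97.5 in labelled double-KO. Its libraries lay below control in the first 2 knockouts and above control in the last. The log2 fold changes were -0.46 (standard error 0.10, adjusted p = 0.0031), -0.35 (standard error 0.10, adjusted p = 0.014) and 0.36 (standard error 0.10, adjusted p = 0.054), so the last missed the threshold, and the second was not called without control library 1 or the unnumbered labelled *Rasa1*-KO library. *Pard3b*, its paralogue, had 17.2, 25.2 and 24.2 CPM in control, 8.44, 7.19 and 6.58 in *Nf2*-KO, 10.0, 11.9 and 10.8 in labelled *Rasa1*-KO and 14.3, 15.2 and 16.1 in labelled double-KO. All knockout libraries were below control, most of all *Nf2*-KO. *Pard3b* fell in *Nf2*-KO (log2 fold change -1.58, standard error 0.16, adjusted p = 1.2e-05) and labelled *Rasa1*-KO (log2 fold change -1.02, standard error 0.16, adjusted p = 0.00037).

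*Pard6* proteins link the kinase to Cdc42, and the 3 genes moved apart. *Pard6g* had 2.95, 2.64 and 4.01 CPM in control, 8.56, 7.88 and 7.92 in *Nf2*-KO, 5.50, 6.92 and 6.10 in labelled *Rasa1*-KO and 2.12, 2.38 and 2.67 in labelled double-KO. It rose in *Nf2*-KO (log2 fold change 1.35, standard error 0.18, adjusted p = 0.0001) and labelled *Rasa1*-KO (log2 fold change 0.95, standard error 0.18, adjusted p = 0.0014), where no library overlapped with control. *Pard6b* fell in *Nf2*-KO (log2 fold change -0.64, standard error 0.09, adjusted p = 0.00018), with 16.9 ± 0.814 CPM against 26.3 ± 0.630 in control (mean ± SD, n = 3). *Pard6a* was called higher in *Nf2*-KO (log2 fold change 0.93, standard error 0.30, adjusted p = 0.026), a call lost without control library 1 or without any single *Nf2*-KO library. The share of *Pard6b* in the FPKM of the 3 genes was 52.7 ± 10.6% in control and 25.2 ± 0.714% in *Nf2*-KO. *Prkci*, the atypical protein kinase C of the complex, had 115, 82.3 and 80.2 CPM in control, 112, 121 and 113 in *Nf2*-KO, 124, 126 and 118 in labelled *Rasa1*-KO and 94.7, 71.5 and 77.3 in labelled double-KO. It rose in labelled *Rasa1*-KO (log2 fold change 0.41, standard error 0.15, adjusted p = 0.042), although any of 9 single libraries could end that call, against 0.31 (standard error 0.15, adjusted p = 0.1) in *Nf2*-KO.

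All 3 members of the Crumbs complex fell in *Nf2*-KO. *Patj*, a scaffold that also binds zonula occludens 3 and claudins, had 33.4, 39.3 and 33.0 CPM in control, 12.1, 11.6 and 11.6 in *Nf2*-KO, 13.1, 14.6 and 13.2 in labelled *Rasa1*-KO and 26.0, 23.9 and 24.8 in labelled double-KO. All knockouts were below control without overlap. *Patj* fell in *Nf2*-KO (log2 fold change -1.58, standard error 0.10, adjusted p = 4.8e-07), labelled *Rasa1*-KO (log2 fold change -1.37, standard error 0.10, adjusted p = 2.1e-06) and labelled double-KO (log2 fold change -0.50, standard error 0.10, adjusted p = 0.013), the last call being lost without labelled double-KO library 2 or 3.

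*Crb2* and *Crb3* encode transmembrane Crumbs proteins. *Crb2* had 40.3, 24.8 and 24.4 CPM in control, 9.54, 9.48 and 9.73 in *Nf2*-KO, 11.9, 12.2 and 12.1 in labelled *Rasa1*-KO and 60.2, 41.1 and 45.3 in labelled double-KO. It was low in the first 2 knockouts and above control in the last. *Crb2* fell in *Nf2*-KO (log2 fold change -1.64, standard error 0.20, adjusted p = 4.6e-05) and labelled *Rasa1*-KO (log2 fold change -1.31, standard error 0.19, adjusted p = 0.00029), and was called higher in labelled double-KO (log2 fold change 0.71, standard error 0.19, adjusted p = 0.049), a call that 11 of the 12 single libraries could end. *Crb3* had 21.2, 13.8 and 10.0 CPM in control, 5.33, 5.57 and 5.80 in *Nf2*-KO, 10.6, 9.38 and 9.77 in labelled *Rasa1*-KO and 14.3, 11.5 and 10.2 in labelled double-KO, and only *Nf2*-KO was free of overlap with control. It fell in *Nf2*-KO (log2 fold change -1.43, standard error 0.23, adjusted p = 0.00042), whereas labelled *Rasa1*-KO stood at -0.60 (standard error 0.23, adjusted p = 0.052) on the log2 scale.

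On the basolateral side the members split again. *Scrib*, the scaffold of the Scribble complex, had 127, 136 and 132 CPM in control, 127, 118 and 129.9 in *Nf2*-KO, 122, 129 and 125 in labelled *Rasa1*-KO and 136, 121 and 121 in labelled double-KO. All groups overlapped, and the log2 fold changes against control were -0.07 (standard error 0.09, adjusted p = 0.52), -0.07 (standard error 0.09, adjusted p = 0.52) and -0.06 (standard error 0.09, adjusted p = 0.74). The paralogues *Llgl1* and *Llgl2*, partners of Scribble that oppose the PAR kinase, went in opposite directions in *Nf2*-KO. *Llgl2* had 107, 78.4 and 66.9 CPM in control, 26.8, 27.7 and 30.7 in *Nf2*-KO, 49.6, 50.1 and 50.0 in labelled *Rasa1*-KO and 87.1, 68.3 and 68.6 in labelled double-KO. It fell in *Nf2*-KO (log2 fold change -1.57, standard error 0.16, adjusted p = 1.6e-05) and labelled *Rasa1*-KO (log2 fold change -0.75, standard error 0.16, adjusted p = 0.0031), without overlap in either. *Llgl1* rose in all 3, with log2 fold changes of 0.73 (standard error 0.09, adjusted p = 4.3e-05), 0.51 (standard error 0.09, adjusted p = 0.00067) and 0.69 (standard error 0.09, adjusted p = 0.00096). The share of *Llgl1* in the FPKM of the pair was 44.3 ± 5.66% in control, 79.4 ± 1.46% in *Nf2*-KO, 65.1 ± 0.932% in labelled *Rasa1*-KO and 58.9 ± 1.78% in labelled double-KO.

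The *Dlg* genes encode scaffolds of the lateral membrane. *Dlg3* (Entrez gene 53310, chromosome X from 100767411 to 100818410) had 5.43, 5.57 and 5.42 CPM in control, 18.8, 20 and 18.2 in *Nf2*-KO, 12.4, 13.7 and 13.4 in labelled *Rasa1*-KO and 6.45, 6.40 and 5.88 in labelled double-KO. The control libraries were close together, and *Nf2*-KO stood highest. *Dlg3* rose 3.48-fold in *Nf2*-KO (log2 fold change 1.80, standard error 0.10, adjusted p = 2.2e-07) and 2.41-fold in labelled *Rasa1*-KO (log2 fold change 1.27, standard error 0.10, adjusted p = 3.8e-06). *Dlg1* rose in all 3 comparisons with control, with log2 fold changes of 0.49 (standard error 0.09, adjusted p = 0.0011), 0.59 (standard error 0.09, adjusted p = 0.00041) and 0.47 (standard error 0.09, adjusted p = 0.011), although the last was not called without labelled double-KO library 3.

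*Dlg5*, which binds cadherin-catenin complexes, varied widely within control. It had 32.0, 88.0 and 94.9 CPM in control, 28.8, 19.2 and 15.5 in *Nf2*-KO, 24.8, 33.4 and 20.6 in labelled *Rasa1*-KO and 85.4, 79.7 and 72.5 in labelled double-KO. The unnumbered control library lay at the level of the first 2 knockouts, and the other control libraries at that of labelled double-KO. *Dlg5* fell in *Nf2*-KO (log2 fold change -1.76, standard error 0.36, adjusted p = 0.0023) and labelled *Rasa1*-KO (log2 fold change -1.45, standard error 0.36, adjusted p = 0.0074), calls that held when each library was left out. Without the unnumbered control library the log2 fold changes were -2.11 and -1.80, and the smallest falls on leaving out a single library were -1.52 and -1.21.

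**Figure D4:**
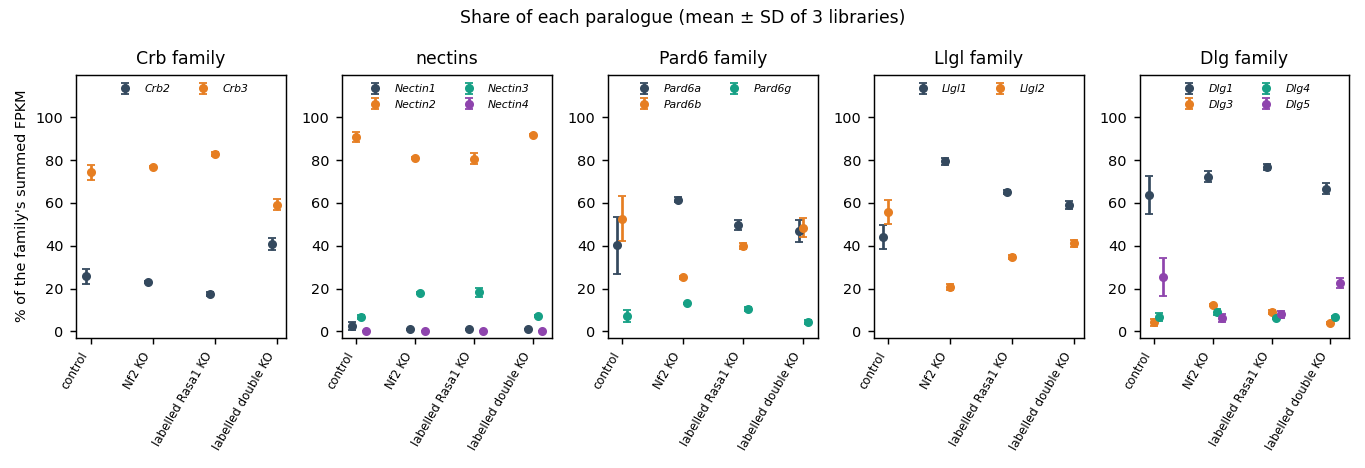
Share of each gene (y axis, percent of the family's summed FPKM; mean ± SD of 3 libraries) in the Crumbs, nectin, *Pard6*, *Llgl* and *Dlg* families by group (x axis). *Llgl1* goes from 44.3% in control to 79.4% in *Nf2*-KO, while *Pard6b* goes from 52.7% to 25.2%.

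The 9 members called in labelled double-KO against control were *Cldn6*, *Cldn15*, *Crb2*, *Dlg1* and *Llgl1*, which rose, and *Cldn2*, *Cgn*, *Tjp3* and *Patj*, which fell. This comparison depended on the fit. Fitted with only its own 6 libraries edgeR called 0 members (11 at an unadjusted p under 0.05), whereas without the unnumbered control library the fit over the other 11 called 18. Control and labelled double-KO libraries whose deposited tables carry the same number deviated in pairs, and a block for these numbers gave 11 calls over all libraries and 2 within the 6. The shares of all genes called in these fits were 0.0942% with its own 6 libraries, 30.3% without the unnumbered control library, and 13.9% and 1.95% with the block. *Cldn2*, *Cldn6*, *Tjp3* and *Llgl1* were the 4 members whose calls held when any single library was left out.

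Labelled double-KO and labelled *Rasa1*-KO differed directly in 22 members, with 15 higher and 7 lower in labelled double-KO (37.5% and 17.5%), beside 16.3% and 14% of all genes tested. The greatest differences were in *Cldn6*, lower in labelled double-KO (log2 fold change -3.18, standard error 0.15, adjusted p = 1.6e-07), and *Crb2*, which was higher (log2 fold change 2.02, standard error 0.20, adjusted p = 3.1e-05). *Cldn14* (1.79, standard error 0.40, adjusted p = 0.0059), *Marveld3* (1.63, standard error 0.31, adjusted p = 0.0025), *Tjp3* (1.60, standard error 0.11, adjusted p = 3e-06), *Dlg5* (1.59, standard error 0.36, adjusted p = 0.0064) and *Cgnl1* (1.13, standard error 0.13, adjusted p = 9.1e-05) were also higher in labelled double-KO on the log2 scale. *Pard6g* (-1.37, standard error 0.18, adjusted p = 0.00023) and *Dlg3* (-1.08, standard error 0.10, adjusted p = 2.4e-05) were lower. *Scrib*, *Ocln* and *Crb3* were not called, and their libraries overlapped. This comparison needs no control library in its difference, and with only its own 6 libraries fitted 25 members and 45.6% of all genes were called, against 22 members and 30.3% of all genes with all libraries.

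*Nf2*-KO and labelled *Rasa1*-KO, which both had low *Nf2*, were also compared with each other. Of the 40 members, 6 were higher and 1 lower in labelled *Rasa1*-KO (15.0% and 2.50%), beside 1.92% and 1.74% of all genes tested. The 6 were *Tjp3* (1.67, standard error 0.12, adjusted p = 8.4e-05), *Cldn14* (2.05, standard error 0.46, adjusted p = 0.032), *Marveld3* (1.54, standard error 0.32, adjusted p = 0.022), *Ocln* (1.37, standard error 0.24, adjusted p = 0.0095), *Llgl2* (0.81, standard error 0.16, adjusted p = 0.017) and *Pard6b* (0.62, standard error 0.09, adjusted p = 0.004), on the log2 scale. These are genes whose libraries labelled *Rasa1*-KO stood nearer to control. *Dlg3* was lower (-0.53, standard error 0.10, adjusted p = 0.014), again nearer to control. For *Cldn6* the 2 groups overlapped, with a log2 difference of 0.07 (standard error 0.14, adjusted p = 0.9). Only *Tjp3* and *Pard6b* kept their call when each library was left out in turn, and with only these 6 libraries fitted the count was 23, while the share of all genes called went from 3.66% to 24.9%.

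Other junction and polarity genes, 36 of a list of 39 in the tables, moved in both directions. In *Nf2*-KO 12 rose and 13 fell (33.3% and 36.1%, beside 20.6% and 22.2% of all genes), with a median log2 fold change of 0.01. Labelled *Rasa1*-KO had 12 that rose and 14 that fell (33.3% and 38.9%, beside 19.7% and 22.2% of all genes). Labelled double-KO had 3 that rose and 2 that fell (8.33% and 5.56%, beside 4% and 2.46% of all genes). Of the 36, 13 were called with a fold change of at least 2 in *Nf2*-KO, and only 6 of these are named here. *Amotl2*, an angiomotin that binds YAP at junctions, rose in *Nf2*-KO (log2 fold change 2.91, standard error 0.20, adjusted p = 7.1e-07). *Jam3* also rose (log2 fold change 3.17, standard error 0.34, adjusted p = 1.9e-05), from a low level. *Igsf5* (JAM4) fell (log2 fold change -2.71, standard error 0.17, adjusted p = 3.4e-07), as did *Epcam* (log2 fold change -2.63, standard error 0.19, adjusted p = 1e-06), *Cdh1* (log2 fold change -2.09, standard error 0.17, adjusted p = 2.2e-06) and *Prkcz* (log2 fold change -2.0, standard error 0.15, adjusted p = 1.5e-06), the other atypical protein kinase C. *Cdh1*, E-cadherin, had 374, 483 and 546 CPM in control and 123, 109 and 98.3 CPM in *Nf2*-KO, without overlap, on the background of 1 floxed allele in the mouse of origin.

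Of 20 transcription factors known to act on junction genes, 17 were in the tables. In *Nf2*-KO 5 rose and 8 fell (29.4% and 47.1%, beside 20.6% and 22.2% of all genes). Labelled *Rasa1*-KO had 3 that rose and 4 that fell (17.6% and 23.5%, beside 19.7% and 22.2% of all genes). Labelled double-KO had 1 that rose and 0 that fell (5.88% and 0.00%, beside 4% and 2.46% of all genes). The repressors *Snai1* (2.31, standard error 0.37, adjusted p = 0.00044), *Snai2* (1.23, standard error 0.27, adjusted p = 0.0036), *Zeb1* (0.75, standard error 0.12, adjusted p = 0.00042) and *Zeb2* (0.91, standard error 0.20, adjusted p = 0.004) and the intestinal factor *Cdx2* (1.67, standard error 0.15, adjusted p = 4.3e-06) were the 5 that rose in *Nf2*-KO on the log2 scale. Not all of these repressors were among the 3 factors that rose in labelled *Rasa1*-KO. Among the factors that fell in *Nf2*-KO were *Hnf4a* (-1.47, standard error 0.17, adjusted p = 3.6e-05), *Grhl3* (-1.18, standard error 0.18, adjusted p = 0.00025) and *Elf3* (-1.58, standard error 0.21, adjusted p = 0.0001). These 8 factors were named after their values were seen, and their part in the levels of the members was not tested.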

How the data were processed

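Total RNA of the 12 libraries was depleted of ribosomal RNA and sequenced with a stranded kit. Per the study's methods and the submitters' processing notes, the authors used Trimmomatic 0.38 to trim, HISAT2 2.1.0 and SAMtools 1.9 to align to mm10, and StringTie 2.1.3b to quantify RefSeq genes. The deposited tables hold raw read counts per gene and FPKM (fragments scaled by gene length and library size), both made by the authors. Counts, not FPKM, were tested, and FPKM served to set genes side by side per length.

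Genes were filtered with edgeR's filterByExpr, scaled by TMM and tested by edgeR 4.0.16 (R 4.3.3), with 1 quasi-likelihood fit over all 12 libraries and Benjamini-Hochberg adjustment over the 18053 genes tested. A gene was called at an adjusted p under 0.05. CPM values are counts divided by the TMM-scaled library size. Groups were taken from the labels. Members were named with each library's value when called with an absolute log2 fold change of at least 1 against control and no overlap between groups, or as the best known of their role (*Cldn18*, *Ocln*, *Tjp1*, *Pard3*, *Crb3*, *Scrib*, *Prkci*), and other junction genes by the same thresholds, up to 6. The members and lists were chosen with earlier results of these data known. Alternatives were size factors (RLE), DESeq2 1.42.0, limma 3.58.1 on log2 FPKM with 1 or 0.1 added, no low-count filter, fold thresholds, fewer libraries and replicate blocks.

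Replicate numbers in the sample titles did not pair the libraries: deviations from the group means of same-numbered libraries correlated between -0.379 and 0.399. The numbers that the deposited tables carry in their names paired control with labelled double-KO (0.626, 0.313 and 0.444), and no other groups (-0.0552 to 0.174). A block for these numbers was therefore given beside that comparison. The values of 1 member are not reported here, although it is counted. Counts of near-identical paralogues could be split by the alignment.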

Additional observations from a re-analysis of the deposited data

How the results depend on the processing

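No called member changed direction in any comparison under any alternative. The number of members called across the 4 groups stayed within 1.5 times 29 under every alternative run. It was 28 to 35 when each library was left out in turn, beside 38.3% to 69.5% of all genes. By the study's rule, a fold change of at least 3 with an unadjusted p under 0.05, members called were 10 in *Nf2*-KO, 3 in labelled *Rasa1*-KO, 0 in labelled double-KO (13 passed that p alone), 6 in labelled double-KO against labelled *Rasa1*-KO and 2 in labelled *Rasa1*-KO against *Nf2*-KO. The shares of all genes called by this rule were 11.4%, 9.27%, 2.03%, 5.66% and 1.29%, so that 3 of 40 members in labelled *Rasa1*-KO and 0 in labelled double-KO lay below the share of all genes. With the adjusted p and a fold change of at least 2 members called were 18, 15, 2, 9 and 4, beside 21.0%, 19.2%, 2.40%, 11.5% and 1.43% of all genes. Fitting only the groups compared gave 0 members in labelled double-KO against control by edgeR (11 at an unadjusted p under 0.05, where DESeq2 over all libraries called 11) and 23 in labelled *Rasa1*-KO against *Nf2*-KO. DESeq2 called 12 members in the latter, and 8.11% of all genes. Leaving out each library in turn gave 25 to 33 members in *Nf2*-KO, 23 to 31 in labelled *Rasa1*-KO, 4 to 18 in labelled double-KO, 18 to 25 in labelled double-KO against labelled *Rasa1*-KO and 2 to 13 in labelled *Rasa1*-KO against *Nf2*-KO. The shares of all genes called in these fits were, in the same order, 32.4% to 61.8%, 31.0% to 60.8%, 2.71% to 30.3%, 19.9% to 46.9% and 1.18% to 12.3%. The highest counts in labelled double-KO and in the last comparison came without the unnumbered control library, and the 4 came without labelled double-KO library 3. Without both libraries whose tables carry no number, the counts were 14 in labelled double-KO and 17 in labelled *Rasa1*-KO against *Nf2*-KO, beside 30.1% and 19.4% of all genes.

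A replicate block by title number gave 5 members in labelled double-KO and 3 in labelled *Rasa1*-KO against *Nf2*-KO, beside 2.78% and 1.26% of all genes, and the block by table number gave 12 in the latter, beside 8.66%. The block by table number within the libraries of labelled double-KO and control, an alternative chosen after seeing the data, gave 2. The cause of these differences was not tested. Genes under about 1 CPM rest on few reads, so that small changes of *Cldn4*, *Cldn14*, *Cldn18*, *Cldn20* and *Cldn23* were not detectable, and the replicates may be technical.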
